A study of Bos taurus with 14 samples.

Results

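The miR-15, miR-16, miR-195 and miR-497 family was followed in the blood of cows on 2 diets. Its members were taken by name from the bovine entries of the library files, which gave bta-miR-15a, bta-miR-15b, bta-miR-16a, bta-miR-16b, bta-miR-195 and bta-miR-497. These are 6 of the 932 miRNA names that had reads in any library, of which 723 were bovine and the others human homologue names. Small RNA came from Holstein cows that were not in milk and had rumen cannulas. Each cow first ate only forage (FD, 0% concentrate) and was sampled again in the first week of a high-grain diet (HG, 65% concentrate). That diet was meant to bring on subacute ruminal acidosis, and by ruminal pH the paper reports at least episodes of it in every cow. There were 8 plasma libraries, from cows 1 to 4 on both diets, and 6 leucocyte libraries, from cows 1, 3 and 4 on both diets. Every cow had FD before HG, so that diet and time cannot be told apart. Leucocytes were the buffy coat of spun blood, plasma was spun again to clear cells, and a different extraction kit was used for each, so that the material and the kit cannot be told apart.

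A miRNA guides a silencing complex to messenger RNAs, mainly through its seed near the 5′ end, and miRNAs with the same seed can share targets. The members described here have a common seed and are best known for restraining the cell cycle, with cyclins, their kinases and the survival factor BCL2 among the known targets. miR-15 and miR-16 are abundant in blood cells, whereas miR-195 and miR-497 are better known from muscle and other solid tissues. A read of plasma RNA carries no mark of the cell it came from, and fewer cells of a type cannot be told apart from less RNA per cell.

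The 6 members formed 3 neighbouring pairs on the bovine genome (UMD3.1 coordinates of the library files). On chromosome 12, miR-15a lay at chr12:19596359-19596379 and miR-16a at chr12:19596213-19596234, with 146 bases between their starts. On chromosome 1, miR-15b lay at chr1:107923398-107923419 and miR-16b at chr1:107923252-107923272, also 146 bases apart. On chromosome 19, miR-195 lay at chr19:27441357-27441378 and miR-497 at chr19:27441675-27441696, 318 bases apart. All 6 were on the minus strand and were 21 or 22 nucleotides long, so that read numbers of different members count molecules of nearly the same length. In the RefSeq annotation of the later assembly ARS-UCD2.0, the gene entries of miR-15b and miR-16b lie within SMC4, which codes for a condensin subunit. Those of miR-15a and miR-16a lie within a transcribed pseudogene, LOC100847818, and those of miR-195 and miR-497 within a long non-coding RNA gene, LOC107131510.

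Levels are given as CPM, the reads of a name per 1000000 reads of all miRNA names in that library. The authors divided a read that matched several names among them, and this decided how high miR-15a and miR-16b stood. In every library miR-15a kept between 49.8% and 49.98% of its reads, because the human name hsa-miR-15a-5p took the rest. The reads of both names were equal in 10 of 14 libraries and differed by at most 7 reads elsewhere. miR-16b kept between 48.2% and 49.1% and shared its reads with hsa-miR-16-5p, with equal reads in 8 of 14 libraries and a largest difference of 23 reads. In contrast, miR-15b kept at least 99.9% and miR-497 kept all of its reads, and miR-16a kept between 90.6% and 96.2%. miR-195 kept 57.2% in the plasma FD library of cow 3 (202.5 of 354 reads) and between 88.9% and 100% in all others. Reads that match both miR-16a and miR-16b cannot be assigned to either with certainty.

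The plasma libraries held between 292241 and 3178990 divided reads, and the leucocyte libraries between 18324737 and 56770875. All 6 leucocyte markers on a list that included miR-223, miR-150 and miR-142 had reads in every library, and their sum was 2.29% to 3.41% of reads in leucocytes and 1.64% to 3.48% in plasma. Red cell miRNAs were present too. miR-451, miR-144 and miR-486, under bovine and human names together, took 35.4% to 48.9% of the leucocyte reads and 7.95% to 23.6% of the plasma reads. The leucocyte HG library of cow 4 stood apart in how these reads were named, with 30.9% of its reads under bta-miR-451 and 0.0496% under hsa-miR-451a, where the other 5 leucocyte libraries had 14.4% to 21.4% and 13.7% to 20.4%. A list of 4 vessel wall miRNAs (miR-126-3p, miR-126-5p, miR-143 and miR-145) took 2.88% to 7.43% in plasma and 0.0644% to 0.325% in leucocytes, and the liver miRNA miR-122 took 0.666% to 8.28% in plasma and at most 0.00899% in leucocytes.

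**Figure D1:**
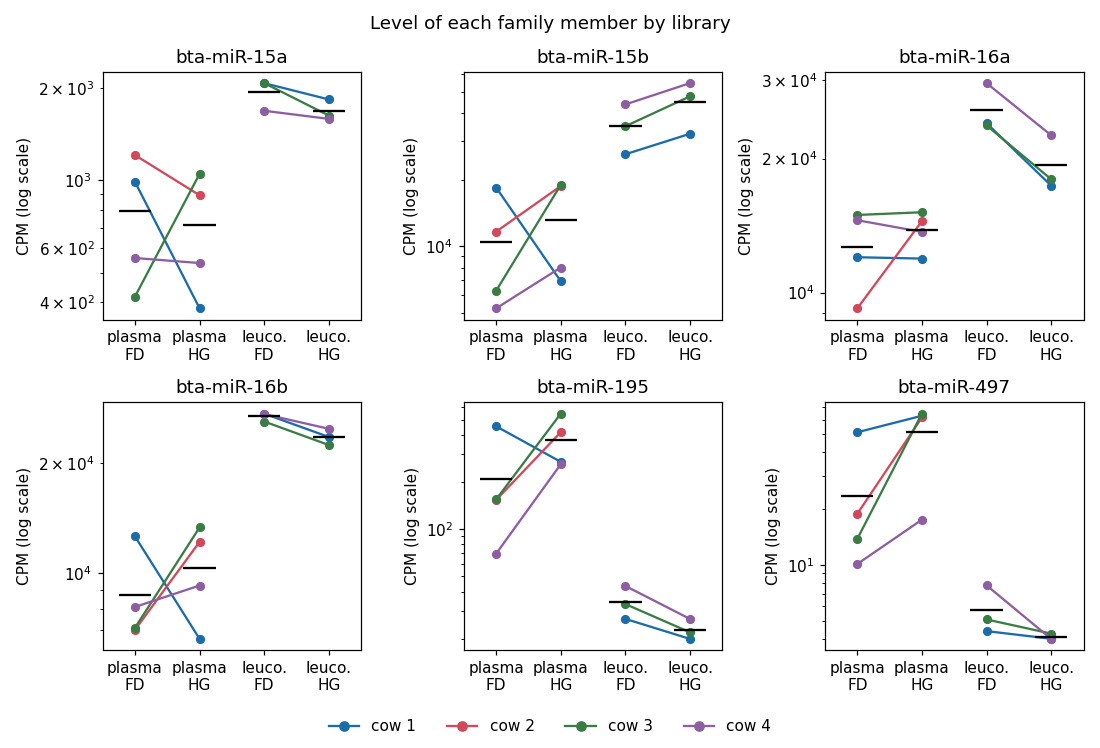
CPM of the 6 family members in each library, on log axes, for plasma and leucocytes (leuco.) on FD and HG. Points are libraries, lines join the libraries of a cow within plasma or leucocytes, and black bars are group means. miR-15a, miR-15b, miR-16a and miR-16b lie higher in leucocytes, and miR-195 and miR-497 lie higher in plasma, without overlap in any panel.

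miR-16a was the most abundant member in plasma under the divided counting, with 13242 ± 2048 CPM (SD, n = 8 libraries). It was followed by miR-15b with 11767 ± 6018 CPM and miR-16b with 9517 ± 2776 CPM. These neighbours did not differ beyond their spread, since miR-16a lay above miR-15b in 4 of 8 libraries and miR-15b above miR-16b in 5 of 8. The others stood clearly lower, each below the one before it in 8 of 8 libraries, with 755 ± 318 CPM for miR-15a, 290.2 ± 167 CPM for miR-195 and 37.6 ± 24.6 CPM for miR-497.

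In leucocytes miR-15b was first with 39821 ± 10636 CPM (SD, n = 6 libraries), then miR-16b with 25195 ± 1984 CPM and miR-16a with 22529 ± 4472 CPM. miR-15b exceeded miR-16b in 5 of 6 libraries by more than the spread of their log2 ratio, while miR-16b and miR-16a did not differ beyond it. miR-15a reached 1817 ± 219.6 CPM, miR-195 28.7 ± 8.56 CPM and miR-497 4.92 ± 1.44 CPM, each lower than the one before in 6 of 6 libraries. Once the reads of the human homologue names were added back, miR-16b came first in both, with 19034 ± 5552 CPM in plasma and 50390.2 ± 3968 CPM in leucocytes. The order among the most abundant members therefore changed with how shared reads were counted, and the order of miR-15a, miR-195 and miR-497 below them was the same under both ways of counting.

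**Figure D2:**
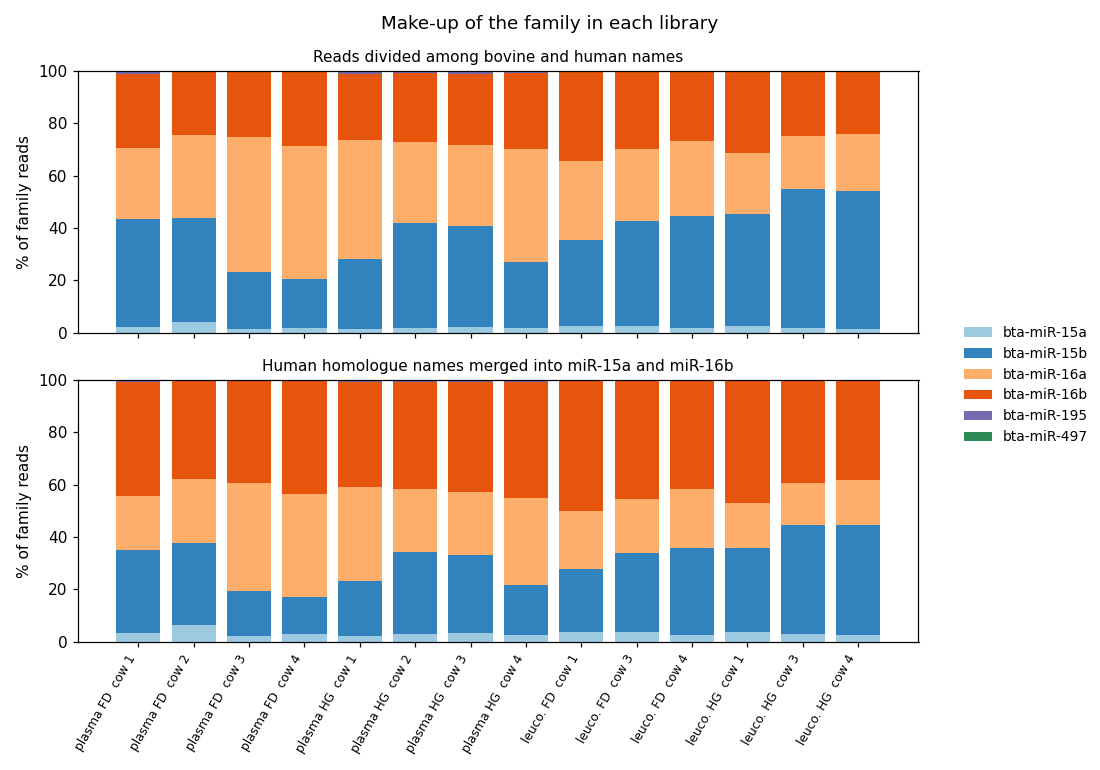
Share of each member in the reads of the family, in percent, for each library. In the upper panel reads are divided among bovine and human names and in the lower panel the human homologue names are merged into miR-15a and miR-16b. miR-16b is the largest part in 1 of 14 bars of the upper panel and in 11 of 14 bars of the lower one, and miR-195 and miR-497 are too low to be seen well.

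Together the members took 4.45%, 2.92%, 2.89% and 2.85% of the plasma reads on FD in cows 1 to 4, and 2.62%, 4.67%, 4.91% and 3.18% on HG. In leucocytes they took 7.94%, 8.66% and 10.2% on FD in cows 1, 3 and 4, and 7.50%, 8.96% and 10.4% on HG. These shares leave out the reads divided off to the human homologue names, which stay in the total. With those names merged in, the family took 3.32% to 6.34% in plasma and 10.04% to 13.11% in leucocytes. The leucocyte shares were all above the plasma shares, and in leucocytes the order of the cows was the same on both diets. Counting error was small beside this, with a Wilson 95% interval at most 0.150 percentage points wide, although reads without molecular identifiers are not independent molecules and the interval covers counting error only. In cows 1, 3 and 4 the share was 5.46 ± 1.61 percentage points higher in leucocytes (SD, n = 3 cows, higher in 3 of 3; exact permutation of signs over cows, two-sided, p = 0.25, the smallest that 3 cows allow).

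The share of the family differed between the diets by less than the spread between cows. In plasma it was 3.28% ± 0.783 on FD and 3.84% ± 1.12 on HG (SD, n = 4), a paired difference of 0.565 ± 1.76 percentage points, higher on HG in 3 of 4 cows (exact permutation of signs over cows, two-sided, p = 0.5, where 4 cows allow 0.125). In leucocytes it was 8.94% ± 1.16 on FD and 8.94% ± 1.43 on HG (SD, n = 3), a difference of -0.00518 ± 0.386 percentage points, higher on HG in 2 of 3 cows (exact permutation of signs over cows, two-sided, p = 1). The direction turned on the counting. With the human homologue names merged in, the leucocyte share was 10.88%, 11.47% and 13.11% on FD in cows 1, 3 and 4. On HG it was then 10.04%, 11.36% and 12.99%, lower in each cow (an alternative chosen after seeing the data). With bovine names alone in the total, the leucocyte difference was -0.862 ± 1.60 percentage points (SD, n = 3 cows), with -0.494 in cow 1, 0.522 in cow 3 and -2.61 in cow 4, and it was 0.0140 without cow 4, whose HG library had few reads under hsa-miR-451a.

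For the effect of the diet on leucocytes, miR-15b was the member that stood higher on HG. Its CPM in cows 1, 3 and 4 was 26028, 34838 and 43719 on FD and 32208, 47562 and 54569 on HG. In 3 of 3 cows it was higher on HG, by 1.24-fold to 1.37-fold, but the cows differed so much among themselves that the groups overlapped. The log2 fold change was 0.37 (SE 0.110, 95% interval 0.13 to 0.61) with an edgeR adjusted p of 0.128.

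The partner of miR-15b in its gene pair, miR-16b, lay lower on HG. It had 27271 CPM, 25959 CPM and 27206 CPM on FD and 23550 CPM, 22388 CPM and 24795 CPM on HG. The groups did not overlap and 0 of 3 cows were higher on HG, with a log2 fold change of -0.18 (SE 0.114, edgeR adjusted p = 0.529).

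The chromosome 12 pair also had lower values on HG in every cow. miR-16a had 24010 CPM, 23733 CPM and 29532 CPM on FD and 17381 CPM, 17965 CPM and 22552 CPM on HG, with no overlap and ratios of 0.724 to 0.764 by cow. Its log2 fold change was -0.41 (SE 0.114, 95% interval -0.66 to -0.16, edgeR adjusted p = 0.123), the largest among the members against its error. miR-15a had 2078 CPM, 2078 CPM and 1688 CPM on FD and 1838 CPM, 1628 CPM and 1588 CPM on HG, and here the groups overlapped (log2 fold change -0.19, SE 0.123, edgeR adjusted p = 0.516).

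The chromosome 19 pair was rare in leucocytes and lower on HG in 3 of 3 cows. miR-195 had 26.7 CPM, 33.3 CPM and 43.4 CPM on FD and 19.9 CPM, 21.95 CPM and 26.7 CPM on HG. The lowest FD library (26.75 CPM) and the highest HG library (26.72 CPM) were almost level and the groups only just failed to overlap (log2 fold change -0.56, SE 0.171, edgeR adjusted p = 0.136). miR-497 had 4.40 CPM, 5.09 CPM and 7.75 CPM on FD and 4.01 CPM, 4.27 CPM and 4.00 CPM on HG, from 94 to 250 reads a library (log2 fold change -0.43, SE 0.234, edgeR adjusted p = 0.439).

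None of the 6 members was called in leucocytes at an edgeR adjusted p under 0.05, where 1.8% of all 779 names tested were called, 0.385% higher and 1.41% lower on HG. At an unadjusted p under 0.05 there were 3 members (miR-15b, miR-16a and miR-195), beside 14.9% of all names. The DESeq2 Wald test called 1 member, miR-195 (log2 fold change -0.56, adjusted p = 0.0336), beside 3.59% of all names. The paper, which used DESeq2 with cow and diet on the same samples, also lists bta-miR-195 as lower on HG in leucocytes. Groups did not overlap for 4 of 6 members, all lower on HG, where 14.5% of all names did not overlap, 9.5% lower and 5.01% higher. The median log2 fold change was -0.30 over the members and -0.02 over all names.

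The calls turned on single cows. Without cow 4, edgeR called miR-15b (adjusted p = 0.0382), miR-16a (adjusted p = 0.0103) and miR-195 (adjusted p = 0.0140), and 111 names in all. Without cow 3 it called 0 of 6 members and 0 names, with 25 names at an unadjusted p under 0.05. The erythrocyte names took 47.4%, 44.9% and 35.4% of leucocyte reads on FD in cows 1, 3 and 4 and 48.9%, 42.1% and 38.8% on HG, higher on HG in 2 of 3 cows, and their part in the members' values was not tested.

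**Figure D3:**
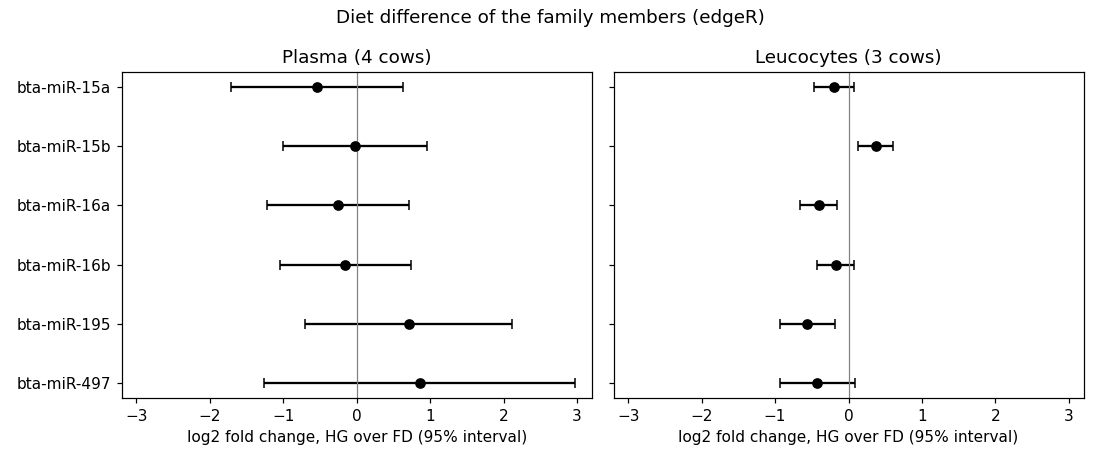
edgeR log2 fold change of each member, HG over FD, with its 95% interval, in plasma (left) and leucocytes (right). Every plasma interval crosses 0. In leucocytes the intervals of miR-15b (above 0), miR-16a and miR-195 (below 0) leave out 0 before adjustment over all names.

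Ratios between members of the same library do not depend on scaling, and in leucocytes they differed between the diets in the same direction in each cow for 4 of 5 pairs. These 4 are the ratios among miR-15a, miR-15b, miR-16a and miR-16b, and any one of them follows from the other 3. The ratio of miR-15b to miR-16b was 0.954, 1.34 and 1.61 on FD in cows 1, 3 and 4 and 1.37, 2.12 and 2.201 on HG. It was 1.46-fold higher on HG, with a log2 difference of 0.55 ± 0.11 (SD, n = 3 cows, higher in 3 of 3), which is larger than the spread between cows.

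The ratio of miR-16a to miR-16b was 0.880, 0.914 and 1.09 on FD and 0.738, 0.802 and 0.910 on HG, a log2 difference of -0.23 ± 0.04 (SD, n = 3 cows, lower in 3 of 3). The ratio of miR-15a to miR-15b had a log2 difference of -0.56 ± 0.21 (SD, n = 3 cows, lower in 3 of 3). These are the paralogues of different chromosomes, and in both pairs the chromosome 12 member was the one with the lower ratio on HG.

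For the chromosome 12 neighbours, miR-15a to miR-16a, the log2 difference was 0.21 ± 0.14 (SD, n = 3 cows, higher in 3 of 3). For miR-195 to miR-497 it was -0.13 ± 0.33 (SD, n = 3 cows, higher in 1 of 3), within the spread between cows. An exact permutation of the signs over 3 cows gives p = 0.25 at best, which the other 4 pairs reached (Benjamini-Hochberg adjusted 0.469 over 15 comparisons of ratios).

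**Figure D4:**
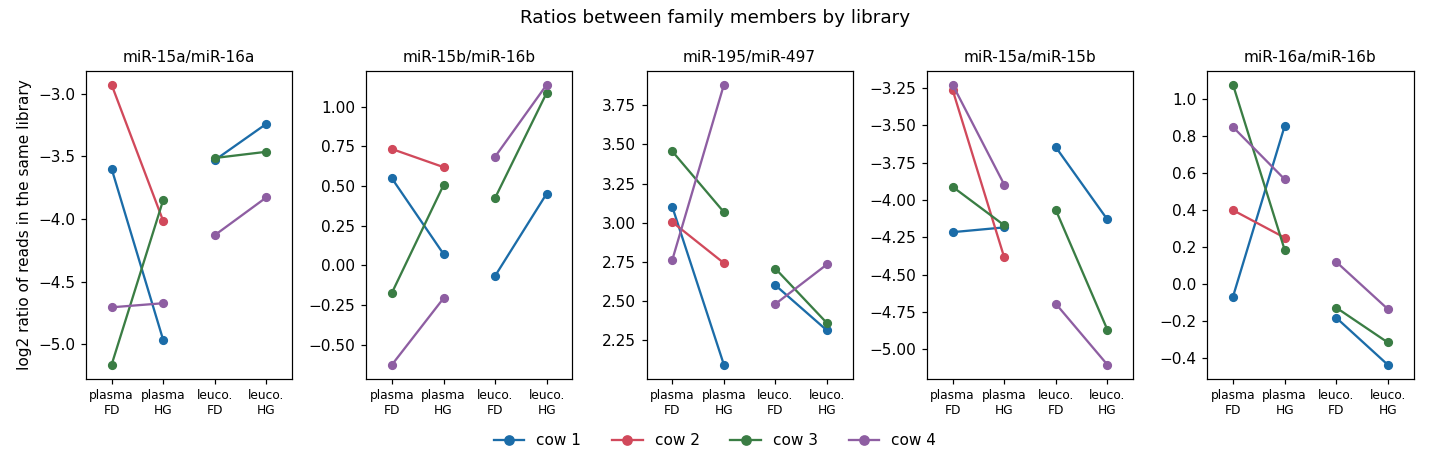
log2 ratio of the divided reads of both named members within each library, for plasma and leucocytes (leuco.) on FD and HG. Lines join the libraries of a cow. In leucocytes miR-15b/miR-16b is higher and miR-15a/miR-15b and miR-16a/miR-16b are lower on HG in each of the 3 cows, and in plasma the lines cross.

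In plasma, miR-497 and miR-195 had the largest fitted differences between the diets. miR-497 had 51.3 CPM, 18.8 CPM, 13.8 CPM and 10.1 CPM on FD in cows 1 to 4 and 62.9 CPM, 61.6 CPM, 64.6 CPM and 17.4 CPM on HG. It was higher on HG in 4 of 4 cows, but the groups overlapped, and its reads numbered only 15 to 23 on FD and 45 to 200 on HG, from 2 to 8 distinct sequences a library. The fit gave a log2 fold change of 0.86 (SE 0.929, 95% interval -1.26 to 2.98, edgeR adjusted p = 0.947).

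miR-195 had 453 CPM, 154 CPM, 155 CPM and 69.7 CPM on FD and 269 CPM, 416 CPM, 546 CPM and 259.6 CPM on HG. In 3 of 4 cows it was higher on HG, by 2.71-fold to 3.72-fold, and lower in cow 1 (0.593). The log2 fold change was 0.71 (SE 0.616, 95% interval -0.70 to 2.11, edgeR adjusted p = 0.947).

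miR-15b in plasma had 18415 CPM, 11631 CPM, 6286 CPM and 5234 CPM on FD and 6943 CPM, 18694 CPM, 18924 CPM and 8008 CPM on HG. miR-16b had 12602 CPM, 6998 CPM, 7087 CPM and 8083 CPM on FD and 6609 CPM, 12173 CPM, 13332 CPM and 9250.3 CPM on HG. Both were higher on HG in cows 2, 3 and 4 and lower in cow 1. Their log2 fold changes were -0.03 (SE 0.430) and -0.16 (SE 0.389).

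miR-16a was the steadiest member in plasma, with 12008 CPM, 9218 CPM, 14940.0 CPM and 14540 CPM on FD and 11923 CPM, 14469 CPM, 15150.2 CPM and 13686 CPM on HG. Its coefficient of variation over the plasma libraries was 15.5%, against 65.4% for miR-497 and 57.5% for miR-195. miR-15a had 989 CPM, 1209.6 CPM, 417 CPM and 558 CPM on FD and 382 CPM, 894 CPM, 1051 CPM and 537 CPM on HG. Both overlapped between the diets, with log2 fold changes of -0.26 (SE 0.424) for miR-16a and -0.54 (SE 0.515) for miR-15a.

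By edgeR 0 of 6 members were called in plasma, where the share of all 536 names called was 0% and 8.58% had an unadjusted p under 0.05. DESeq2 also called 0 of 6 members, beside 1.87% of all names, and no member reached an unadjusted p under 0.05 by either tool. All 6 overlapped between the diets, and 5.22% of all names did not. The scale was unsure. The median log2 fold change over all names was 0.26 with TMM scaling and 0.64 with library size only, which turned the sign of miR-15b (0.41), miR-16a (0.14) and miR-16b (0.25), so that no direction is given for these members. The median over the members was -0.09 with TMM scaling.

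Depth moved with several members in plasma. The libraries with the fewest reads were FD of cow 1 and HG of cows 2 and 3, with 292241 to 836370 reads against 1119759 to 3178990 in the other 5. In these 3 libraries miR-15b had 18415 to 18924 CPM against 5234 to 11631 CPM in the others, miR-16b had 12173 to 13332 CPM against 6609 to 9250.3 CPM, and miR-195 had 416 to 546 CPM against 69.7 to 269 CPM. These ranges did not overlap, whereas those of miR-15a, miR-16a and miR-497 did. The share of all names that did not overlap in this split was not counted, so it is not given as a trait of these members. The vessel wall list took 6.06% to 7.43% in the same 3 libraries and 2.88% to 4.98% in the others, and the erythrocyte names 21.3% to 22.2% against 7.95% to 23.6%. The part of depth and of these cells in the members' values was not tested.

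Between leucocytes and plasma the family split into 2 sides. miR-15a, miR-15b, miR-16a and miR-16b were higher in leucocytes on both diets, and miR-195 and miR-497 were higher in plasma. The means compared here are over cows 1 to 4 in plasma and cows 1, 3 and 4 in leucocytes, without pairing. Mean CPM in leucocytes was 3.35-fold higher on FD and 3.41-fold higher on HG for miR-15b. It was 3.08-fold and 2.28-fold higher for miR-16b, 2.46-fold and 2.35-fold higher for miR-15a, and 2.03-fold and 1.40-fold higher for miR-16a. Mean CPM in plasma was 6.03-fold higher on FD and 16.3-fold higher on HG for miR-195, and 4.09-fold and 12.6-fold higher for miR-497. The CPM of plasma and leucocytes did not overlap for 6 of 6 members on either diet, where 51.7% of all names on FD (33.2% higher and 18.4% lower in leucocytes) and 54.1% on HG (25% higher and 29.1% lower) did not overlap.

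The fit over all 14 libraries called 5 of 6 members on FD, 4 higher and 1 lower in leucocytes, where 34.4% of all 797 names were called, 19.3% higher and 15.1% lower. On HG it called 6 of 6 members, 4 higher and 2 lower, where 35.1% of all names were called, 18.3% higher and 16.8% lower. On FD the log2 fold change, leucocytes over plasma, was 2.63 (SE 0.372) for miR-15b, 2.33 (SE 0.246) for miR-16b, 2.25 (SE 0.373) for miR-15a and 1.61 (SE 0.272) for miR-16a, with edgeR adjusted p of 0.00114 or less. On HG it was 3.24 (SE 0.378), 2.42 (SE 0.2497), 2.68 (SE 0.363) and 1.59 (SE 0.274), with edgeR adjusted p of 0.00132 or less. The calls of miR-15a, miR-15b and miR-16b held under every alternative run, including each cow left out. That of miR-16a held on FD and was lost on HG with library size only (log2 fold change 0.42, edgeR adjusted p = 0.219).

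On the plasma side, miR-195 had a log2 fold change of -1.74 (SE 0.576, edgeR adjusted p = 0.0388) on FD and -2.75 (SE 0.593, edgeR adjusted p = 0.00583) on HG. The FD call was lost under 4 of 12 alternatives and when cow 1, 2 or 3 was left out, where the log2 fold change reached -0.48 and the adjusted p 0.515. The HG call was lost with 1 of 4 cows left out (cow 3, adjusted p = 0.0781). miR-497 had -1.03 (SE 0.756, edgeR adjusted p = 0.318) on FD and -2.28 (SE 0.779, edgeR adjusted p = 0.0402) on HG, and its HG call was lost under 5 of 12 alternatives and with any cow left out (adjusted p 0.0507 to 0.268). Without cow 1 the FD value of miR-497 turned to 0.19.

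The size of these differences depends on the scaling. The median log2 fold change over all names was 1.62 on FD and 0.77 on HG with TMM scaling, and 1.03 on FD and -0.31 on HG with library size only. Against the TMM median, the median over the members was 1.93 on FD and 2.01 on HG, which mixes members of both sides. On FD the value of miR-16a given above lay close to the median of all names. The sides of the 6 members were the same under both scalings. The erythrocyte names were higher in leucocytes together with the miR-15 and miR-16 members, and the vessel wall list and miR-122 were higher in plasma together with miR-195 and miR-497, by the shares given above, and their part in the split was not tested.

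**Figure D5:**
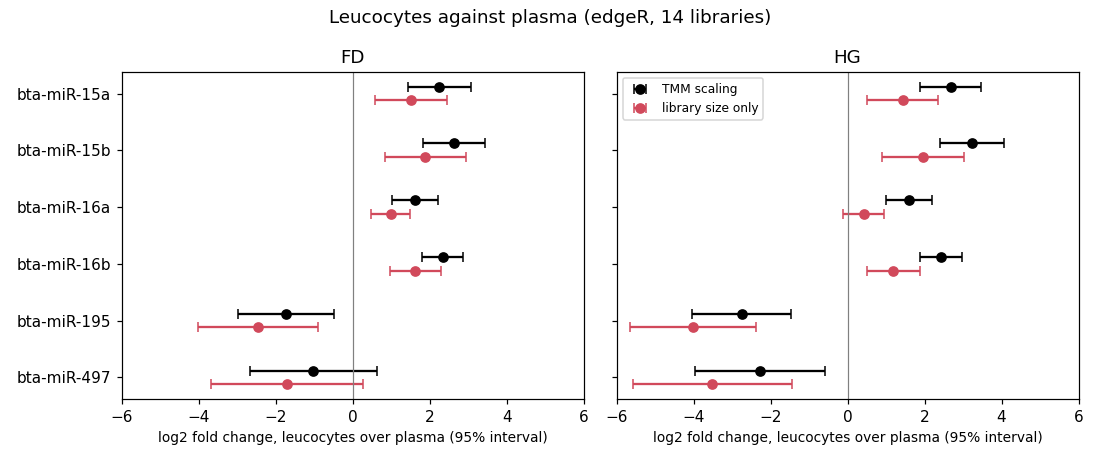
edgeR log2 fold change of each member, leucocytes over plasma, with its 95% interval, on FD (left) and HG (right), with TMM scaling (black) and with library size only (red). miR-15a, miR-15b, miR-16a and miR-16b lie right of 0 and miR-195 and miR-497 left of 0 under both scalings, and the red points lie further left.

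Within libraries and under the divided counting, miR-16a mostly exceeded miR-16b in plasma and mostly lay below it in leucocytes. With the human homologue names merged, miR-16b lay above miR-16a in 7 of 8 plasma libraries, so the order in plasma turned on the counting. The ratios here use the divided counting. The ratio of miR-16a to miR-16b was 0.953 to 2.11 in plasma and 0.738 to 1.09 in leucocytes, and in cows 1, 3 and 4 its log2 value was 0.76 ± 0.08 lower in leucocytes (SD, n = 3 cows; value -0.757, lower in 3 of 3). The ratio of miR-15a to miR-16a was 1.83-fold higher in leucocytes (log2 difference 0.87 ± 0.15, SD, n = 3 cows, higher in 3 of 3). That of miR-195 to miR-497 had a log2 difference of -0.53 ± 0.34 (SD, n = 3 cows, lower in 3 of 3). Each reached p = 0.25, the smallest that an exact permutation of the signs over 3 cows can give. The ratios of miR-15b to miR-16b and of miR-15a to miR-15b differed by less than the spread between cows.

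Whether the diet effect differed between leucocytes and plasma was tested as an interaction in the same fit. It called 0 of 6 members, and the share of all 797 names called by edgeR was 0%, with 7.28% at an unadjusted p under 0.05. DESeq2 called 0 of 6 members, beside 3.39% of all names. The largest estimates were -1.25 (SE 0.993, 95% interval -3.41 to 0.92) for miR-497 and -1.01 (SE 0.747, 95% interval -2.64 to 0.61) for miR-195, both negative since these members had higher fitted values on HG in plasma and lower ones in leucocytes. For miR-15b it was 0.61 (SE 0.494, 95% interval -0.47 to 1.69).

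Of 19 related names on a list (other arms, human homologues, and miR-424 and miR-503, whose 5p arms are related in seed), 7 had reads. The 3 bovine names among them stood on the side of plasma. They lie together on the minus strand of chromosome X, at chrX:18185105-18185124 (bta-miR-503-5p), chrX:18185459-18185479 (bta-miR-424-5p) and chrX:18185496-18185516 (bta-miR-424-3p). As bta-miR-424-3p is the opposite arm of bta-miR-424-5p, the 3 names do not stand for 3 separate loci. bta-miR-424-5p had 20.6 to 180.5 CPM in plasma and 5.31 to 10.7 CPM in leucocytes, bta-miR-424-3p 3.51 to 88.5 CPM and 0.388 to 1.69 CPM, and bta-miR-503-5p 7.02 to 53.8 CPM and 1.40 to 1.80 CPM. None of these overlapped between plasma and leucocytes, as was the case for 51.7% of all names on FD and 54.1% on HG. On HG all 3 were called lower in leucocytes, where 16.8% of all names were called lower, with log2 fold changes of -2.64 (SE 0.680, edgeR adjusted p = 0.0137) for bta-miR-424-5p, -3.41 (SE 0.967, edgeR adjusted p = 0.0180) for bta-miR-424-3p and -2.63 (SE 0.843, edgeR adjusted p = 0.0302) for bta-miR-503-5p. Of the 3, bta-miR-503-5p was called on FD (log2 fold change -2.42, SE 0.834, edgeR adjusted p = 0.0442), where 15.1% of all names were called lower. Over the 7 related names, 4 were called higher and 1 lower in leucocytes on FD, where 34.4% of all names were called in either direction. On HG 4 were called higher and 3 lower, where 35.1% of all names were called. Those called higher are human names that carry the reads of miR-15a and miR-16b or have no reads in plasma. They are no separate support for the split between leucocytes and plasma.

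The human names hsa-miR-15a-5p and hsa-miR-16-5p carry the same reads as miR-15a and miR-16b and are no separate measurement. The other 2 names with reads are the opposite arms of the chromosome 12 pair, hsa-miR-15a-3p and hsa-miR-16-1-3p. They had 3.38 to 6.003 CPM and 3.60 to 5.70 CPM in leucocytes and were not listed in any of 8 plasma libraries, where the smallest read count listed is 2. At their mean leucocyte level the plasma libraries would hold 1.32 to 14.4 reads of hsa-miR-15a-3p and 1.36 to 14.8 reads of hsa-miR-16-1-3p, the lower of which are below the smallest count listed. With no reads in plasma, both arms met the read filter through their leucocyte reads alone. Their calls as higher in leucocytes are therefore no evidence of a difference. No p-value or fold change is given, since the fitted value depends on the prior count. None of the 7 related names was called between the diets (5 tested in plasma, 7 in leucocytes), where the shares of all names called were 0% and 1.8%. In leucocytes bta-miR-424-5p had an unadjusted edgeR p of 0.0171 (log2 fold change -0.60, adjusted p = 0.212).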

How the data were processed

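Small RNA was sequenced from plasma (8 libraries) and leucocytes (6 libraries). Per the labels and the paper's methods, the authors used bcl2fastq 2.20 to demultiplex and Skewer 0.2.2 to trim, and sRNAbench then matched reads to miRBase 22 names of cattle and human on UMD3.1. The deposited library files hold counts, in which a read counts in full at each name it matches, and estimated counts, in which it is divided (expected counts). The deposited tables of counts divided by size factors were not used here.

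The members and the lists of related names and markers were chosen with earlier results of these data known. Estimated counts were rounded and tested with edgeR 4.0.16 in R 4.3.3 (TMM, robust quasi-likelihood test, cow as a block, at least 10 reads a name over the libraries fitted), with p-values adjusted after Benjamini and Hochberg over all names, at an adjusted p under 0.05. One fit for plasma, one for leucocytes and one over all 14 libraries were made, and tested on simulated data. Shares and ratios (pseudocount 0.5) were compared by exact two-sided permutation of signs over cows. All 6 members and all related names are reported, and for each member with at least 10 CPM on average the 2 bovine names with the nearest profile. The alternatives were DESeq2 1.42.0, limma 3.58.1 (voom with quality weights), other scalings, filters and counts, no block, and each cow left out.

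Cows were paired as the same animals. Leucocyte labels carry a letter for each cow. Plasma labels do not, and their cows follow the order of the labels, in which 504 of 504 values equal the numbering by cow in the study's supplement. Deviations from the group means correlated at 0.542 to 0.731 within cows in leucocytes, and at -0.223 to 0.169 in plasma, so that the plasma profiles themselves do not show the pairing.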

Additional observations from a re-analysis of the deposited data

Results flagged for a closer look

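In 3 of 30 sets of 4 plasma values, one value stood apart from the other 3 by Dixon's criterion at the 95% level, where chance gives about 1 in 20, or 1.5 sets. The share of the family in plasma on FD was 4.45% in cow 1 and 2.85% to 2.92% in the others. On HG miR-497 had 17.4 CPM in cow 4 and 61.6 to 64.6 CPM in the others. The ratio of HG to FD for miR-16a in plasma was 1.57 in cow 2 and 0.941 to 1.01 in the others. The FD library of cow 1 had the fewest reads, the miR-497 value of cow 4 rests on 45 reads, and the ratio of cow 2 has the lowest miR-16a value of all plasma libraries, 9218 CPM, as its FD value. What lies behind these values was not tested.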

How the results depend on the processing

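With DESeq2 or a mean of at least 10 CPM as the filter, 1 member was called between the diets in leucocytes (miR-195 and miR-16a, respectively) in place of 0, and leaving out each cow gave 0 to 3, with 3 without cow 4. The leucocyte difference in family share was -0.862 percentage points with bovine names only, beside -0.00518. Without cow 4 it was 0.0140 (an alternative chosen after seeing the data). Without the block for cow, 0 members were called between the diets in plasma and in leucocytes, and 5 on FD and 6 on HG between leucocytes and plasma, as with the block. Over all names in leucocytes, 14 calls became 0 without the block, 28 with DESeq2, 9 with DESeq2 size factors, 5 with bovine names only, 7 without robust fitting, 6 without the erythrocyte names (an alternative chosen after seeing the data), and 0 to 111 with each cow left out. In plasma 0 calls became 10 with DESeq2, and for the interaction 0 became 27 with DESeq2 and 8 with limma. Leaving out cow 3 took the calls between leucocytes and plasma from 274 to 106 on FD and from 280 to 158 on HG. Of 170 alternative values for the comparisons, 166 differed from the reported one by less than the spread between cows or, for counts, by no more than 1.5 times, and the other 4 are the family share and the 3 counts of members named first. This margin is wide where the spread exceeds the difference itself, as for the plasma family share (0.565 ± 1.76 percentage points). There even a value of the other sign can lie within it. Of 449 values for single members, 401 kept their direction and their side of the threshold, 18 lost a call, 5 gained one and 25 that were not called turned sign. The calls lost were those of miR-195, miR-497 and, on HG with library size only, miR-16a between leucocytes and plasma. The plasma values of miR-497 rest on 15 to 200 reads a library.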

Other observations

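Outside the family, the bovine names whose profile over the libraries lay nearest to each member were looked up, as the root mean square difference of log2 CPM after each name was centred on its mean. In leucocytes, over 6 libraries and 210 names with at least 10 CPM, miR-22-3p was among the nearest names of both miR-16a (0.119) and miR-195 (0.0766), and miR-130b among those of both miR-15a (0.0849) and miR-16b (0.0823). miR-15b lay nearest to let-7c (0.0695) and miR-1842 (0.117), and 110 names lay nearer to it than any other member did (0.414 to miR-16b). The remaining nearest names were miR-2285g for miR-15a (0.0630), miR-6524 for miR-16a (0.110), miR-330 for miR-16b (0.0737) and miR-27a-3p for miR-195 (0.124), and miR-497 was below 10 CPM. In plasma, over 8 libraries and 288 names, miR-195 lay nearest to its relative miR-424-5p (0.267) and then miR-20a (0.308), and miR-15a nearest to miR-100 (0.193) and the red cell miRNA miR-451 (0.195). miR-15b lay nearest to miR-378 (0.193) and miR-30a-5p (0.195), miR-16a to miR-30e-5p (0.261) and miR-191 (0.285), miR-16b to the vessel wall miRNAs miR-143 (0.166) and miR-126-5p (0.246), and miR-497 to miR-183 (0.350) and miR-6119-5p (0.370). With so few libraries, which share depth and composition, these distances are a description.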
